A study of Ovis aries with 4 samples.

Results

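CDK1-positive cells are the cells of the lactating sheep mammary gland in which at least 1 UMI, a counted mRNA molecule, of CDK1 was found. They were chosen from the droplet single-cell RNA libraries of 4 ewes, after barcodes with over 20% mitochondrial UMIs had been left out. The rule found 518 CDK1-positive cells among 38886 cells, and the other 38368 cells are called CDK1=0 cells here. Each library came from the mammary gland of 1 lactating Ovis aries ewe. LL 1 and LL 2 came from late lactation, and LH 1 and LH 2 are taken as peak lactation because the design names only these stages and the labels do not spell LH out. The labels give no breed, age, treatment or dissociation step, and shares are shares of the cells that entered droplets. P-values speak only for these 4 ewes, or for fewer where a fit leaves out a library. Those of single genes also draw on the spread shared over all genes tested.

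CDK1 is the kinase that, bound to its cyclins, drives a cell from G2 into mitosis. AURKA, a kinase of the centrosome and spindle, is made in the same window and is removed as mitosis ends. In the mammary gland, the secretory epithelium divides mostly in pregnancy and early lactation, while immune cells such as T cells and macrophages can also divide within tissue. CDK1 mRNA is high from S phase on and low in resting cells. A droplet library samples only part of a cell's mRNA, so a CDK1=0 cell may still hold CDK1 mRNA, and free mRNA can place a single UMI in a cell that does not express the gene.

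The libraries held 60303230 and 65339993 UMIs in LL 1 and LL 2, and 28015149 and 56178927 UMIs in LH 1 and LH 2, all deposited barcodes included. CDK1-positive cells were deeper than CDK1=0 cells in every library. Their median UMI counts were 5052, 10344, 5452 and 6663 in LL 1, LL 2, LH 1 and LH 2, against 3044, 2694.5, 3313 and 2985 in CDK1=0 cells. Mitochondrial shares lay close together, with medians of 2.20% to 4.59% in CDK1-positive cells and 2.17% to 5.34% in CDK1=0 cells. Doublet calls took 3.70% to 8.75% of the CDK1-positive cells and 4.35% to 4.93% of the CDK1=0 cells of a library. Libraries shared 158 barcodes, of which 0 belonged to a CDK1-positive cell. The files pair a symbol with 774 of 20150 genes, so most genes of the cell cycle could be counted but not named.

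CDK1-positive cells made up 0.997% of LL 1 (126 of 12639 cells, exact 95% interval 0.831% to 1.19%) and 1.60% of LL 2 (177 of 11033, 1.38% to 1.86%). They made up 1.37% of LH 1 (80 of 5853, 1.09% to 1.70%) and 1.44% of LH 2 (135 of 9361, 1.21% to 1.70%). LL 1 was the lowest and LL 2 the highest library, so the stages overlapped. The mean was 1.30% in LL and 1.405% in LH (n = 2 each), a difference of -0.104 percentage points (exact two-sided permutation test over 6 arrangements, p = 1; the smallest p this design allows is 0.333). The sign turned with the rule for a cell: the difference was 0.0841 points for cells with at least 2 CDK1 UMIs, and 0.200 points without LL 1. Intervals cover counting error only. Of 50 cells with at least 5 UMIs of the mast cell tryptase TPSB2, 0 held a CDK1 UMI, at a median depth of 2561 UMIs. This allows a share of up to 7.11%, the upper end of its exact 95% interval. Of these cells 47 came from LL 1 and none from LH, and that limit lies above the share of every library, so the level that free mRNA gives was not bounded by them.

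Most CDK1-positive cells met the rule by 1 UMI. There were 403 such cells, followed by 36 with 2 UMIs, 15 with 3, 20 with 4 and 44 with at least 5, with a highest count of 23. AURKA, which the rule did not use, was found in 27 of the 403 cells with 1 CDK1 UMI (6.70%, exact 95% interval 4.46% to 9.60%) and in 76 of the 115 cells with at least 2 (66.1%, 56.7% to 74.7%). By CDK1 count, the share with an AURKA UMI was 0.863% at 0 UMIs, 6.70% at 1, 38.9% at 2, 66.7% at 3, 65.0% at 4 and 88.6% at 5 or more. Pooled over libraries the share climbed with CDK1, apart from the step from 3 to 4 UMIs. From 2 UMIs on, the exact 95% intervals of neighbouring counts overlapped. These intervals are over cells pooled over ewes and do not measure the spread between ewes. LL 2 gave 15 of the 20 cells with 4 UMIs and 25 of the 44 with at least 5. By library the order was not always kept. In LH 2 the share was 42.9% at 2 UMIs, 100% at 3, 0% at 4 and 75.0% at 5 or more, on 7, 2, 1 and 8 cells.

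Since deeper cells show more of every gene, the AURKA share was also set beside 5 CDK1=0 cells for each CDK1-positive cell, matched by library, marker class and nearest total UMI count. Cells with 1 CDK1 UMI had AURKA in 2.83%, 7.56%, 8.20% and 8.55% of cells in LL 1, LL 2, LH 1 and LH 2, against 0.943%, 2.52%, 1.31% and 2.22% of their matched cells. Cells with at least 2 had it in 60.0%, 70.7%, 63.2% and 61.1%, against 0%, 7.93%, 8.42% and 2.22% of theirs. Both kinds of cell exceeded their matched cells in all 4 libraries. Read the other way, 103 of the 434 cells with an AURKA UMI were CDK1-positive (23.7%).

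**Figure D1:**
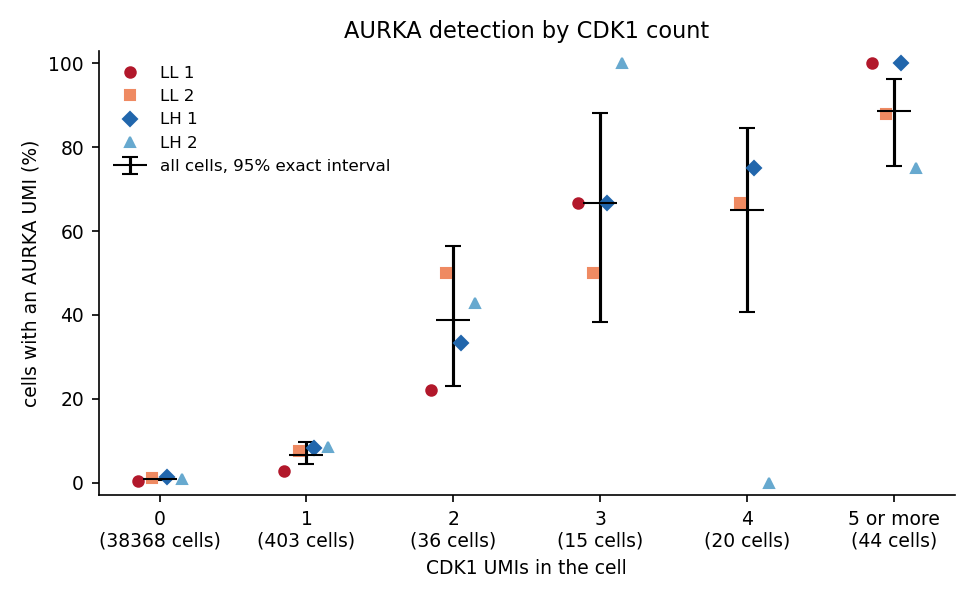
Share of cells with at least 1 AURKA UMI (y axis, percent) by the number of CDK1 UMIs in the cell (x axis), over all 4 libraries (black, with exact 95% intervals) and in each library (coloured points). The share was 0.863% at 0 CDK1 UMIs, 6.70% at 1 and 88.6% at 5 or more.

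Lineages were set by 6 markers. EPCAM is an adhesion protein of epithelial cells, and DCN (at least 5 UMIs) is decorin, a matrix proteoglycan of fibroblasts. CD3E is a chain of the T cell receptor complex, and C1QA is a complement chain made by macrophages. EDNRA is the endothelin receptor of contractile and perivascular cells, and RELN is reelin, which lymphatic endothelium makes. A cell with exactly 1 of these markers was placed in that class; 97 CDK1-positive cells had several markers and 104 had none.

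The EPCAM class held 154 CDK1-positive cells, 29.7% of them all, while it held 15.5% of all cells. The C1QA class held 36, the CD3E class 49, the EDNRA class 41, the DCN class 26 and the RELN class 11. Within the EPCAM class, CDK1-positive cells were 2.54%, 3.18%, 2.87% and 1.77% of cells in LL 1, LL 2, LH 1 and LH 2 (mean 2.59% ± 0.606, SD, n = 4). Within the C1QA class they were 1.97%, 1.80%, 0.810% and 4.14% (2.18% ± 1.41). The lowest and highest of these libraries were both LH.

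In the CD3E class the shares were 1.04%, 1.68%, 1.15% and 0 of 561 cells, the last of which allows a share of up to 0.535% (mean 0.968% ± 0.702, SD, n = 4). The EDNRA class was the most even, at 1.07%, 0.663%, 1.08% and 0.852% (0.915% ± 0.198). The DCN class had 0.422%, 1.43%, 0.952% and 0 of 25 cells (0.702% ± 0.624), where 0 of 25 allows up to 13.7%. The RELN class had 0.723%, 0.987%, 0 of 63 and 1.97% (0.921% ± 0.817), where 0 of 63 allows up to 5.69%. The ranges of all these classes overlapped, except that every EPCAM-class library lay above every library of the CD3E, EDNRA and DCN classes.

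The classes also differed in depth. EPCAM-class cells had a median of 17358 UMIs when CDK1-positive and 9108 when CDK1=0, while the EDNRA class had 3043 and 2679. With each cell thinned to 2000 UMIs and shallower cells left out (297 in the EPCAM class and 1298 in the EDNRA class), the mean share was 0.622% in the EPCAM class, 0.610% in EDNRA, 0.613% in CD3E, 0.634% in RELN and 0.463% in DCN. The C1QA class, with 522 shallower cells left out, stood at 1.42% ± 1.20 (SD, n = 4), and its libraries ranged from 0.603% to 3.19%. At equal depth the EPCAM class thus no longer stood above the EDNRA class beyond the spread of its libraries.

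**Figure D2:**
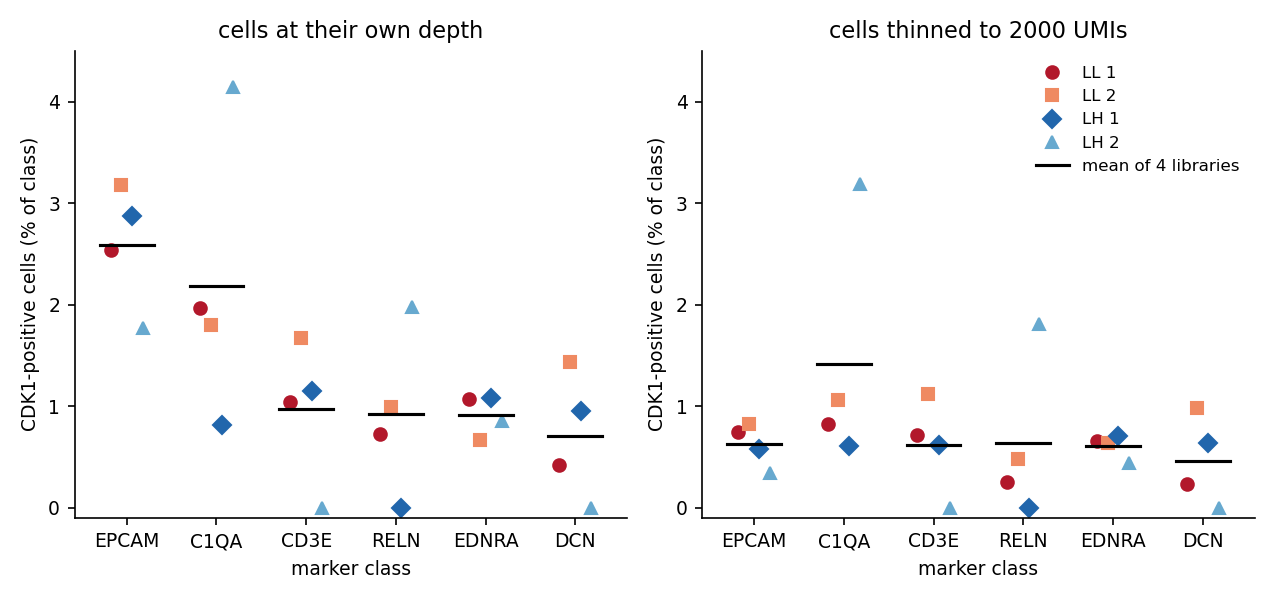
Share of cells that were CDK1-positive (y axis, percent) in each marker class (x axis), 1 point per library and a line at the mean, at the cells' own depth and after thinning to 2000 UMIs. The EPCAM class averaged 2.59% at its own depth and 0.622% after thinning; the C1QA class averaged 2.18% and 1.42%.

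Cells with at least 2 CDK1 UMIs were spread less evenly over the classes than cells with 1. They numbered 53 of 154 in the EPCAM class, 11 of 36 in C1QA, 10 of 49 in CD3E, 3 of 26 in DCN, 1 of 41 in EDNRA and 0 of 11 in RELN. These counts are pooled over ewes. In LL 1, LL 2, LH 1 and LH 2 they were 9, 39, 2 and 3 in EPCAM, 2, 2, 2 and 5 in C1QA, and 2, 1, 7 and 0 in CD3E. AURKA was found in 46 CDK1-positive cells of the EPCAM class, 12 of C1QA, 8 of CD3E, 1 of DCN, 3 of EDNRA and 0 of RELN. The 46 were 9, 33, 3 and 1 cells of LL 1, LL 2, LH 1 and LH 2. Depth was also highest in the EPCAM class, and its part in these counts was not tested.

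A second readout used many CDK1-linked genes at once. The 78 genes that were called and over 8-fold higher in the CDK1-positive cells of the EPCAM class were summed in every other class, and the 77 such genes of the CD3E class were summed in the EPCAM class; 51 genes were on both lists and CDK1 was on neither. The lists were made after results were seen and only AURKA among them has a symbol, so the sums are given as a description, without a test. Of the 518 CDK1-positive cells, 137 lay above the 99th percentile of their class's matched CDK1=0 cells (26.4%). Of the 2590 matched cells 30 did (1.16%), a share that the percentile itself sets near 1%. Among CDK1-positive cells, 95 of 115 with at least 2 CDK1 UMIs (82.6%) and 42 of 403 with 1 (10.4%) lay above it. The same percentile of a class served both counts, so the counts were not matched to each other in depth. Their median depths were 20110 and 4541 UMIs.

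The sum was higher in CDK1-positive cells of the EPCAM, C1QA and CD3E classes in every library that held some. In the EPCAM class it was 11727, 5948, 1941 and 1827 CPM, the UMIs scaled to a fixed library total, in LL 1, LL 2, LH 1 and LH 2, against 274, 408, 330 and 347 CPM in matched CDK1=0 cells. In the C1QA class it was 4385, 24939, 20671 and 16187 CPM, against 345, 649, 982 and 848 CPM. The C1QA values rest on only 8, 3, 2 and 23 CDK1-positive cells. In the CD3E class it was 9156, 13236 and 15483 CPM in LL 1, LL 2 and LH 1, against 681, 348 and 409 CPM. All these values of CDK1-positive cells exceeded all those of matched cells in their class.

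By cell, 62 of 154 in the EPCAM class (40.3%), 14 of 36 in C1QA (38.9%) and 11 of 49 in CD3E (22.4%) lay above the 99th percentile. These cells are pooled over ewes: LL 2 gave 81 of the 154, LH 2 gave 23 of the 36 and LH 1 gave 26 of the 49. In the C1QA class 2 of 180 matched cells set that percentile, at 18389 CPM.

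In the DCN class the sum was 197, 232 and 193 CPM in LL 1, LL 2 and LH 1, against 186, 253 and 194 CPM in matched cells, and 0 of 26 cells lay above the 99th percentile. In RELN, 0 of 11 cells did, and the sum was 127, 64.3 and 645 CPM in LL 1, LL 2 and LH 2, against 192, 261 and 301 CPM in matched cells. It was thus lower than in matched cells in both LL libraries and higher in LH 2, on 2 to 13 UMIs a library. In EDNRA it was 1133, 187, 166 and 6010 CPM, against 214, 239, 166 and 310 CPM, and 3 of 41 cells were above the percentile (7.32%). By marker UMIs alone all 6 lineages thus held CDK1-positive cells, while cells above that percentile were found in the EPCAM, C1QA and CD3E classes, with 3 in the EDNRA class and 0 in DCN and RELN. Of the cells outside these classes, 36 of 97 with several markers and 11 of 104 with none lay above the percentile. For this reason the cells are called CDK1-positive here, rather than cycling.

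**Figure D3:**
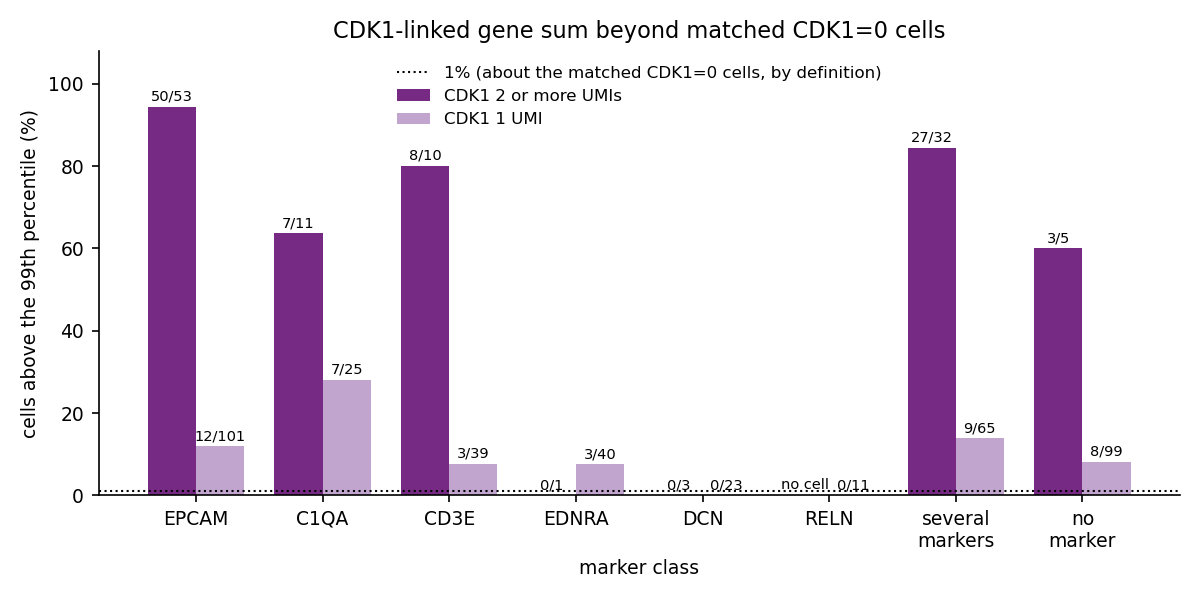
Share of CDK1-positive cells (y axis, percent) whose sum of CDK1-linked genes lay above the 99th percentile of matched CDK1=0 cells, by marker class (x axis) and by CDK1 count (dark bars, at least 2 UMIs; light bars, 1 UMI); numbers over the bars are cells above it over all cells, and the dotted line is at 1%. The dark bar stands at 50 of 53 cells in the EPCAM class, 7 of 11 in C1QA and 8 of 10 in CD3E, while the DCN and RELN classes have 0 of 23 and 0 of 11 cells with 1 UMI. Cells are pooled over ewes: 39 of the 53 came from LL 2, 5 of the 11 in C1QA from LH 2 and 7 of the 10 from LH 1. Dark and light bars share the percentile of their class and are not matched to each other in depth.

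Gene by gene, the 518 CDK1-positive cells were set against their 2590 matched cells on counts summed per library, with the library as a block (edgeR quasi-likelihood test, Benjamini-Hochberg adjusted p under 0.05 over 11319 genes; CDK1 left out). Of these genes 535 were called (4.73%), 417 higher (3.68%) and 118 lower (1.04%). The rises were larger: 111 of them exceeded 8-fold, and 4 of the falls did. Only 25 of the 535 called genes had a symbol, 12 higher and 13 lower. Log2 changes below are on the summed counts, with their standard errors, and the median over all genes was -0.03.

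AURKA and H2AZ1 were among the rises with a symbol. AURKA had 43.1, 34.5, 56.6 and 35.8 CPM in CDK1-positive cells of LL 1, LL 2, LH 1 and LH 2, against 0.813, 2.54, 2.92 and 1.75 CPM in matched cells (log2 change 4.32 ± 0.25, adjusted p = 2.29e-07). H2AZ1, a histone H2A variant found at promoters, had 70.0, 90.7, 65.3 and 68.2 CPM, against 28.6, 21.8, 20.1 and 32.6 CPM (1.54 ± 0.16, adjusted p = 4.6e-05). For both genes every CDK1-positive value lay above every matched value, which held for 3.73% of all genes tested.

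FEN1, the flap endonuclease that trims Okazaki fragments, had 2.92, 4.45, 4.35 and 2.80 CPM, against 0.677, 1.27, 0.836 and 1.52 CPM (1.70 ± 0.39, adjusted p = 0.0281). TIMELESS, which protects the replication fork, had 6.41, 12.5, 5.22 and 7.27 CPM, against 2.03, 2.10, 2.51 and 4.78 CPM (1.61 ± 0.35, adjusted p = 0.0198). DNMT1, the methyltransferase that copies DNA methylation at replication, had 131, 232, 161 and 174 CPM, against 86.3, 126, 114 and 113 CPM (0.67 ± 0.09, adjusted p = 0.000426). None of these 3 genes overlapped between the cell groups, although FEN1 and TIMELESS stood at few counts. The FEN1 call was lost without LL 1 (adjusted p = 0.0815), without LH 1 (adjusted p = 0.0885) and with DESeq2 (adjusted p = 0.108), and the TIMELESS call without LL 2 (adjusted p = 0.243).

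CBX5, a heterochromatin protein, rose by 0.78 ± 0.12 on the log2 scale (adjusted p = 0.00152), and PSIP1, which tethers factors to chromatin, by 0.50 ± 0.10 (adjusted p = 0.0159), a call lost without LL 2 (adjusted p = 0.0902) and without LH 2 (adjusted p = 0.0794). ARL6IP1, a protein that shapes the endoplasmic reticulum, had 271, 276, 204 and 285 CPM, against 110, 121, 136 and 162 CPM in matched cells (0.99 ± 0.11, adjusted p = 0.000128). CDK4, the D-cyclin partner that opens G1, had 57.7, 93.2, 54.8 and 68.8 CPM, against 48.0, 59.4, 40.5 and 56.2 CPM (0.43 ± 0.11, adjusted p = 0.0393). It was higher in all 4 libraries, but the cell groups overlapped, and the call was lost without LL 2 (adjusted p = 0.253), LH 1 (0.0985) or LH 2 (0.0794) and with DESeq2 (adjusted p = 0.108).

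Of 57 listed genes of S phase and replication, 1 had a symbol, and it rose (FEN1). Of 66 listed genes of G2 and mitosis, 2 besides CDK1, which set the cells, had a symbol, and both rose (AURKA and H2AZ1). Of 45 listed regulators of the cell cycle and growth arrest, 12 had a symbol and were tested; 1 rose (CDK4), 0 fell, and their median log2 change was -0.18 with 2 of 12 above 0. Among those that missed the threshold, the antiproliferative gene BTG2 stood at -0.44 (adjusted p = 0.0864), the CDK inhibitor CDKN1A at -0.28 (adjusted p = 0.160) and the D-type cyclin CCND3 at -0.24 (adjusted p = 0.282). Of 9 tested genes of growth signalling 1 fell, KDR, a VEGF receptor (-0.59, adjusted p = 0.0287), a call lost without LL 1 (adjusted p = 0.191), without LL 2 (adjusted p = 0.249) and with DESeq2 (adjusted p = 0.129). Of the 5 tested genes of nucleotide, energy and translation none passed. The lymphocyte activation list had 4 genes tested and none called. Beside these lists, 3.68% of all genes tested were higher and 1.04% lower, and a list with 1 call rests on that gene alone.

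Genes of differentiated cells were among the falls. LTF, the secreted milk protein lactoferrin, had 1141, 2396, 588 and 894 CPM in CDK1-positive cells of LL 1, LL 2, LH 1 and LH 2, against 2401, 4846, 839 and 1200 CPM in matched cells (-0.76 ± 0.11, adjusted p = 0.000819). PAEP, which encodes the whey protein beta-lactoglobulin, had 1151, 1624, 254 and 493 CPM, against 2001, 3030, 349 and 666 CPM (-0.66 ± 0.09, adjusted p = 0.000604). Both were lower in each library, while libraries differed more from one another than the cell groups did.

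ID3, an inhibitor of bHLH transcription factors, had 56.6, 74.3, 41.8 and 85.0 CPM, against 109, 114, 58.5 and 119 CPM (-0.64 ± 0.10, adjusted p = 0.00249). It was lower in 4 of 4 libraries, with overlap between libraries. DCN had 321, 293, 152 and 2.24 CPM, against 688, 397, 314 and 21.6 CPM; it set a class by which cells were matched, so its values are a description without a test. Beside the 1.04% of all genes tested that fell, 2 of the 6 tested luminal markers fell (LTF and PAEP). Of the 3 tested fibroblast markers other than DCN 0 passed, and of the 3 tested macrophage markers, C1QA among them, 1 fell (MRC1, the mannose receptor, by 1.28, adjusted p = 0.0487). The LTF and PAEP falls turned to 0.18 and 0.16 when all CDK1=0 cells, unmatched, were the comparison.

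**Figure D4:**
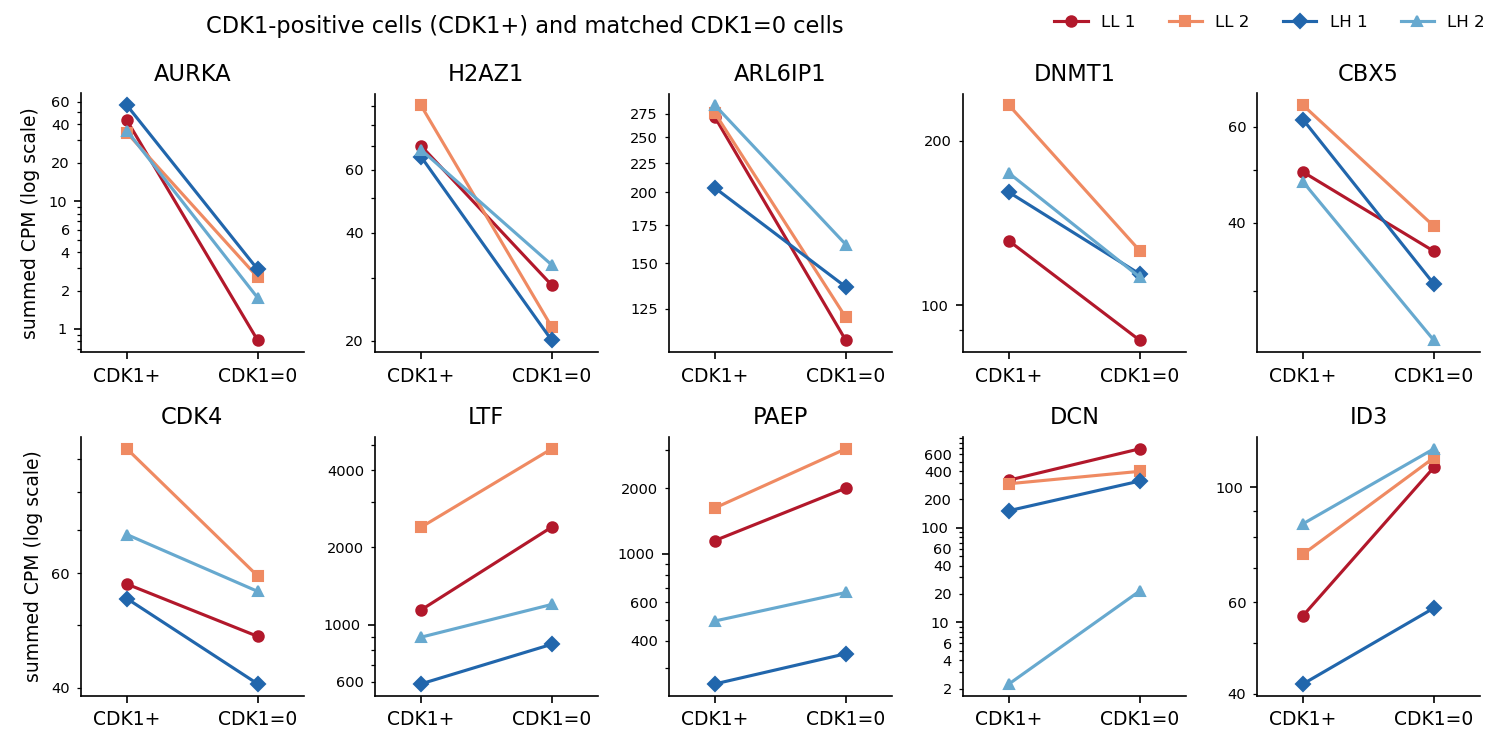
CPM (log scale, y axis) of 10 named genes in CDK1-positive cells (CDK1+) and matched CDK1=0 cells, with a line joining both sums of a library. AURKA, H2AZ1, ARL6IP1, DNMT1, CBX5 and CDK4 were higher and LTF, PAEP, DCN and ID3 lower in CDK1-positive cells of all 4 libraries; DCN also set 1 of the classes used for matching.

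Among genes without a symbol, ENSOARG00000014562 had 180, 129, 164 and 105 CPM in CDK1-positive cells, against 1.76, 2.54, 2.30 and 1.98 CPM in matched cells (5.97 ± 0.16, adjusted p = 2.78e-09). It was found in 26.1% of CDK1-positive cells and 1.78% of matched cells. ENSOARG00000000647 had 98.5, 83.7, 80.1 and 71.6 CPM, against 0.813, 1.08, 1.67 and 0.700 CPM (6.33 ± 0.19, adjusted p = 4.37e-09). Neither had overlapping values.

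The steepest called falls among genes without a symbol, ENSOARG00000012585 at -4.37 and ENSOARG00000009143 at -3.93, rested on very few cells. For each of them, 9 of the 2590 matched cells held 90% of the UMIs. ENSOARG00000012585 was found in 48.6% of CDK1-positive cells and 50.5% of matched cells, and ENSOARG00000009143 in 21.0% and 21.1%.

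The rises and falls were then read separately for cells with at least 2 and with exactly 1 CDK1 UMI, each against its own matched cells. With at least 2 UMIs (115 cells), 503 of 9185 genes were higher (5.48%) and 167 were lower (1.82%). H2AZ1 had 140, 127, 106 and 177 CPM in LL 1, LL 2, LH 1 and LH 2, against 27.0, 21.7, 20.0 and 27.2 CPM (log2 change 2.50 ± 0.16). LTF had 657, 1648, 135 and 266 CPM, against 3268, 5110, 630 and 1103 CPM (-2.04 ± 0.15, adjusted p = 6.9e-06). H2AZ1 was separated without overlap, as were 6.12% of the genes tested in that direction, and LTF was lower in each library.

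Further named genes passed in these cells. PAEP had 897, 1127, 71.9 and 282 CPM, against 2683, 3065, 299 and 780 CPM (-1.60 ± 0.14, adjusted p = 2.76e-05). The tight-junction gene CLDN4 fell by 1.22 on the log2 scale, and SPP1, which encodes the secreted glycoprotein osteopontin, by 0.81. Thus 4 of the 5 tested luminal markers fell, beside 1.82% of all genes tested. The D-type cyclin CCND3 fell by 0.70 and the antiproliferative gene BTG1 by 0.47, while CDK4 rose by 0.69 (adjusted p = 0.0456). This left 1 of 11 tested regulators higher and 2 lower, beside 5.48% and 1.82% of all genes tested. IGFBP6, which binds insulin-like growth factors, rose by 1.505 on the log2 scale, with 257, 34.04, 586 and 691 CPM against 92.7, 21.6, 384 and 60.5 CPM.

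With exactly 1 UMI (403 cells), 69 of 9881 genes were higher (0.698%) and 9 were lower (0.0911%), and ID3 was the only called gene with a symbol (-0.62, adjusted p = 0.0227). In these cells LTF stood at -0.21, PAEP at -0.13 and H2AZ1 at 0.58 (adjusted p = 0.299). Both sets of matched cells share 109 cells, and the difference between the sets was not tested.

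**Figure D5:**
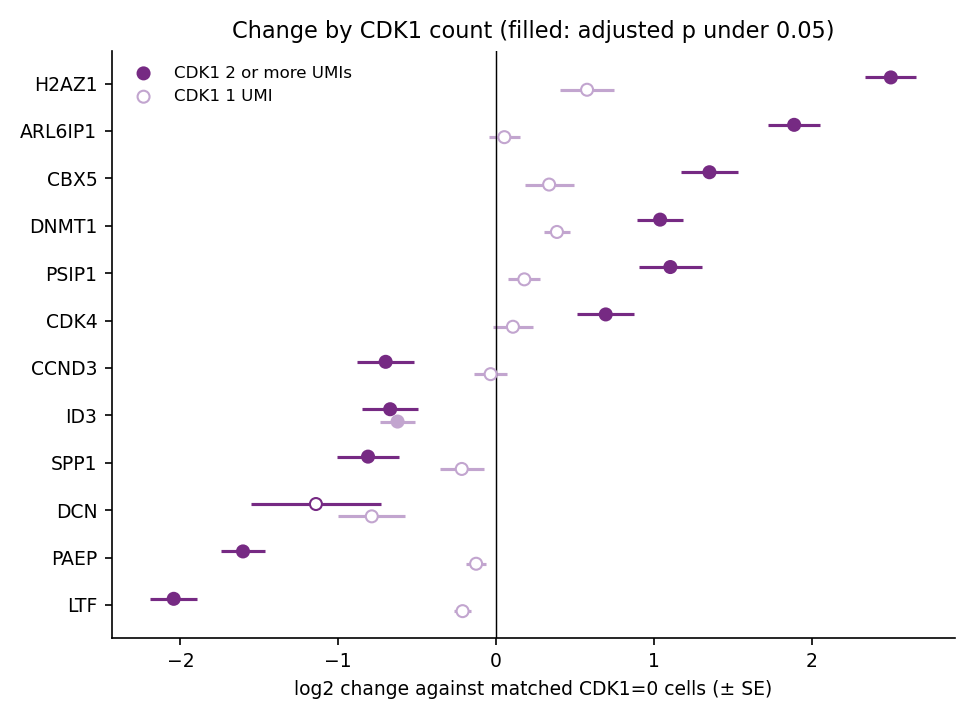
Log2 change against matched CDK1=0 cells (with standard errors) of 12 named genes in cells with at least 2 CDK1 UMIs (dark) and with exactly 1 (light); filled points passed the threshold. LTF stood at -2.04 and -0.21, PAEP at -1.60 and -0.13, and H2AZ1 at 2.50 and 0.58.

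Within the EPCAM class, 154 CDK1-positive cells were set against all CDK1=0 cells of the class, and 210 of 10289 genes were higher (2.04%) and 74 lower (0.719%). AURKA had 91.2, 38.2, 11.9 and 6.17 CPM in LL 1, LL 2, LH 1 and LH 2, against 0.513, 2.98, 1.19 and 1.33 CPM (4.26 ± 0.62, adjusted p = 0.00156). H2AZ1 had 101, 96.0, 38.8 and 49.4 CPM, against 24.1, 22.6, 19.1 and 31.6 CPM (1.57 ± 0.24, adjusted p = 0.00227). CBX5 rose by 0.91 and DNMT1 by 0.71, so all 4 rises with a symbol were shared with the comparison over all classes. Without LL 2 the calls of H2AZ1 (adjusted p = 0.0691), CBX5 (0.143) and DNMT1 (0.141) were lost. AURKA and H2AZ1 in CDK1-positive cells were higher in LL 1 and LL 2 than in LH 1 and LH 2, a difference that was not tested within the class.

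Most falls of the EPCAM class were not called against cells of like depth. IFNG and XCL1, cytokines of T and NK cells, stood at -2.75 and -2.21, and CD52, a lymphocyte surface protein, at -2.16. XCL1 had 6.75, 6.95, 23.9 and 39.5 CPM in CDK1-positive cells, against 68.4, 40.3, 313 and 57.0 CPM in CDK1=0 cells. Against the CDK1=0 cells nearest in depth, 12 of 8893 genes were lower (0.135%) and 181 higher (2.04%); there XCL1 stood at -0.56 (adjusted p = 0.662) and CD52 at -1.11 (adjusted p = 0.321), and IFNG was below the filter. In the class, XCL1 was found in 31 of 154 CDK1-positive cells (20.1%) and in 159 of 770 matched cells (20.6%), and CD247, a T cell receptor chain, in 6 (3.90%) and in 32 (4.16%). The part of lymphocyte RNA in these falls was not tested.

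Against those depth-matched cells, IGFBP6 had 142, 19.3, 285 and 104 CPM, against 36.3, 9.33, 50.02 and 36.4 CPM (1.76 ± 0.21, adjusted p = 0.000272). CAV1, the caveola coat protein, rose by 0.99 ± 0.21 (adjusted p = 0.0244). Both were higher in 4 of 4 libraries. ID3 fell by 0.73 (adjusted p = 0.0446) and the membrane protein gene PMP22 by 1.07 (adjusted p = 0.0473), and both also passed without depth matching, where each call was lost without LL 1 and without LL 2, and that of ID3 also without LH 2. LTF stood at -0.79 (adjusted p = 0.0797) and PAEP at -0.65 (adjusted p = 0.140), so neither passed within the EPCAM class. Against all CDK1=0 cells of the class, the casein gene CSN3 fell (-1.45, adjusted p = 0.00766). It had 339, 0.435, 0 and 2.47 CPM in LL 1, LL 2, LH 1 and LH 2, against 817, 5.47, 5.25 and 4.00 CPM. The CSN3 call was lost without LL 1 and with DESeq2. The glucose transporter gene SLC2A3 also fell there (-1.73, adjusted p = 0.000293), a call lost against cells nearest in depth.

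Within the CD3E class, LL 1, LL 2 and LH 1 had at least 10 CDK1-positive cells (49 in all) and LH 2 had none. Of 7085 genes, 138 were higher (1.95%) and 52 lower (0.734%), with a median over all genes of -0.19. AURKA had 25.3, 120 and 96.7 CPM, against 1.23, 1.69 and 5.20 CPM (4.59 ± 0.63, adjusted p = 3.54e-11). The small p-values of this class draw on the spread shared over genes, and do not measure that of each gene between 3 ewes. H2AZ1 had 50.7, 201 and 96.7 CPM, against 36.9, 36.7 and 35.4 CPM (1.63 ± 0.48, adjusted p = 0.0269), a call lost without LL 2 (adjusted p = 0.787), without LH 1 (adjusted p = 0.439) and with DESeq2 (adjusted p = 0.134). ARL6IP1 had 355, 562 and 469 CPM, against 199, 174 and 187 CPM (1.32 ± 0.27). All 3 genes were separated without overlap, as were 6% of the genes tested in that direction.

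CCND3 and SLC2A3 were among the falls. CCND3 had 228, 281 and 528 CPM, against 633, 614 and 970 CPM (-1.09 ± 0.25, adjusted p = 0.000995), although against cells nearest in depth it stood at -0.79 (adjusted p = 0.149). SLC2A3, a glucose transporter, had 710, 602 and 1034 CPM, against 1315, 1590 and 1691 CPM (-0.97 ± 0.20), and it also fell against depth-matched cells (-0.95, adjusted p = 0.00315); without LL 2 its adjusted p was 0.127. TIMP3, a metalloproteinase inhibitor, fell by 1.02, a call lost without LL 1, LL 2 or LH 1 (adjusted p = 0.148, 0.300 and 0.0914). The mitochondrially encoded genes ND5 (-0.79), ND3 (-0.70), COX3 (-0.56), ATP6 (-0.53), CYTB (-0.52) and ND2 (-0.52) also fell, each lower in 3 of 3 libraries. With DESeq2 the calls of CCND3, SLC2A3, TIMP3 and these 6 genes were lost, and 3 of 7085 genes were called lower. The median mitochondrial share of the class was 2.86%, 3.25% and 4.95% in CDK1-positive cells of LL 1, LL 2 and LH 1, against 3.93%, 3.58% and 5.30% in CDK1=0 cells. Against depth-matched cells none of these 6 genes passed (ND5 at -0.49, adjusted p = 0.470, and ND3 at -0.32, adjusted p = 0.583), and the part of the mitochondrial share in the other falls was not tested. In that depth-matched comparison 75 of 2424 genes were higher (3.09%) and 11 lower (0.454%), and PSMB8, a subunit of the immunoproteasome, and ACTB, beta-actin, each rose by 0.81. Of the 5 T cell markers tested, among them CD3E, which set the class, 0 passed, with a median log2 change of 0.04 and 3 above 0. XCL1, the 1 tested gene of the NK cell markers, fell by 0.63 (adjusted p = 0.0244) and was lower in 3 of 3 libraries. That call was lost without LL 1, without LL 2 and with DESeq2. Against depth-matched cells XCL1 stood at -0.16 (adjusted p = 0.873).

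The EPCAM and CD3E comparisons share no cells. Of 6734 genes tested in both, 166 rose in the EPCAM class and 121 in the CD3E class, and 95 rose in both, which is 57.2% of the EPCAM list and 78.5% of the CD3E list. The C1QA, EDNRA, DCN and RELN classes had too few CDK1-positive cells per library for a test across genes.

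Whether the change with CDK1 differed between stages was tested as an interaction on the matched sums. Of 11319 genes 1 was called (0.00883%), and 575 had an unadjusted p under 0.05. MMP7, a matrix metalloproteinase of glandular epithelium, had 212 and 71.5 CPM in CDK1-positive cells of LL 1 and LL 2, against 30.3 and 14.99 CPM in matched cells. In LH 1 and LH 2 it had 183 and 88.4 CPM, against 163 and 91.9 CPM (difference of log2 changes 2.48 ± 0.21, adjusted p = 0.00568). MMP7 was higher in CDK1-positive cells of both LL libraries and lay near its matched level in LH. The call was lost without LH 1 (adjusted p = 0.0620) and without LH 2 (adjusted p = 0.283). The next gene with a symbol by p was MX1, an interferon-induced GTPase, at -1.30 (adjusted p = 0.303). Genes of CDK1-positive cells were not compared between stages within a lineage, because no class had 20 of them in each library; the EPCAM class had 10 in LH 1.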

How the data were processed

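The deposited UMI counts were taken without change. Their makers' tools are Cell Ranger 5.0.1, STAR and Seurat 3.2.0 per the submitters' processing notes; per the file headers the Cell Ranger version is 7.2.0. Genome build and annotation are not given in the sources used here. Of 774 symbols, 762 were found in the supplied RefSeq gene table, and none of the identifiers (0 matched); no sequence was used. Groups and replicate numbers came from the titles.

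Barcodes over 20% mitochondrial UMIs (13 genes) were left out: 94, 145, 102 and 19 in LL 1, LL 2, LH 1 and LH 2. Doublets were not removed; as an alternative, the top 5% of cells by Scrublet score (scanpy 1.11.5) were called, since the automatic threshold failed. Sums of counts over the cells of a group in a library were tested with edgeR 4.0.16 in R 4.3.3 (TMM, filterByExpr with a minimum count of 10, quasi-likelihood, Benjamini-Hochberg adjusted p under 0.05 over all genes tested). The library was the block, since both sums of a pair came from 1 ewe. Replicate numbers share nothing stated between LL and LH. A class was tested with at least 10 CDK1-positive cells in at least 3 libraries. Shares have exact Clopper-Pearson 95% intervals. The code was checked on simulated counts.

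Named genes have a symbol, passed the threshold, moved the same way in every library of the fit and reach 20 CPM on average in the higher group (up to 15 per direction, 10 per class), or belong to the listed genes and markers; for the interaction the genes of lowest p were taken. MRC1 and others outside this rule, the genes named for cells with 1 or at least 2 CDK1 UMIs and for depth-matched cells were chosen after their values were seen. The CDK1-positive cells, the gene lists and the settings were chosen with earlier results of these data known. DESeq2 1.42.0, limma 3.58.1, other thresholds, depth thinning and leaving out each library were tried as alternatives.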

Additional observations from a re-analysis of the deposited data

Results flagged for a closer look

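MMP7 was picked out because its change with CDK1 differed between LL and LH, with a difference of log2 changes of 2.48 (edgeR's interaction test, adjusted p = 0.00568). It was higher in CDK1-positive than in matched cells in 2 of 2 LL libraries, and in 1 of 2 LH libraries. In LL 1, 8 of 126 CDK1-positive cells held all 364 of its UMIs. Whether these few cells set the difference was not tested.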

How the results depend on the processing

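Over all classes, 535 genes were called, against 439 with DESeq2, 960 without the filter on low counts, 210 with no replicate block, 1884 with all CDK1=0 cells, 78 for exactly 1 CDK1 UMI, 171 without cells that held an EPCAM UMI, 315 with limma on means of cells and 393 to 464 leaving out 1 library. The block is the ewe. With all CDK1=0 cells the log2 changes of CRYAB, CTTNBP2, LTF and PAEP turned to 0.30, 0.11, 0.18 and 0.16; without EPCAM UMIs CTTNBP2 and PMP22 turned to 0.31 and 0.10, and PMP22 to 0.011 with limma. In the EPCAM class 284 genes became 654 without the filter, 119 with no replicate block, 564 with cells of several markers and 119 (without LL 2) to 348 leaving out 1 library; without LL 1 the count was 154. In the CD3E class 190 became 121 with DESeq2, 114 with no replicate block, 112 for at least 2 CDK1 UMIs, 86 against cells nearest in depth, 438 with cells of several markers and 81 (without LH 1) to 214. The interaction called 1 gene, 3 with DESeq2, 78 without the filter, and 0 to 12 leaving out 1 library (0 without LH 1 or LH 2, 12 without LL 1). The stage difference in share was -0.104 points with replicate numbers as a replicate block, 0.0841 for at least 2 CDK1 UMIs, 0.0169 thinned to 2000 UMIs, 0.0285 with an AURKA UMI, and -0.408 to 0.200 leaving out 1 library. For at least 2 CDK1 UMIs class shares were 0.804% (EPCAM), 0.165% (DCN), 0.164% (CD3E), 0.861% (C1QA), 0.0180% (EDNRA) and 0% (RELN). With an AURKA UMI they were 0.779% (EPCAM), 0.0224% (DCN), 0.146% (CD3E), 0.758% (C1QA), 0.0482% (EDNRA) and 0% (RELN). Thinned to 1000 UMIs the EPCAM and EDNRA shares were 0.342% and 0.316%, thinned to 2000 they were 0.622% and 0.610%, and with doubled marker thresholds 3.29% and 1.15%. The cause was not tested in any of these cases, other than the smaller number of cells or genes where the setting itself removes them.

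AURKA kept its direction and its call in every setting in which it was tested in all 3 comparisons. It was not tested in some settings, among them exactly 1 CDK1 UMI over all classes and depth-matched cells in the CD3E class. The comparison of CDK1-positive cells between stages within a lineage was not run, nor were its alternatives. The settings with an AURKA UMI, with exactly 1 CDK1 UMI, without EPCAM UMIs and with exactly 1 marker (364 genes called) were chosen after seeing the data. The number of cells limits the C1QA, EDNRA, DCN and RELN classes, which had 11 to 41 CDK1-positive cells.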

Other observations

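Within the EPCAM class, pooled over ewes, CDK1-positive cells were 71 of 2542 cells with more LTF than SPP1 UMIs (2.79%) and 83 of 3483 other cells (2.38%). The order differed by library. In LL 1 and LL 2 the shares were 2.04% and 2.81%, against 2.94% and 4.26% of the other cells. In LH 1 and LH 2 they were 7.5% and 3.49%, on 3 and 6 CDK1-positive cells, against 2.27% and 1.62%. Thinned to 2000 UMIs, the pooled shares were 0.521% and 0.713%. In the CD3E class, CDK1-positive cells were 16 of 875 cells with a CD4 or CD40LG UMI (1.83%), and 6 of 316 with a CTLA4 or IL2RA UMI (1.90%, exact 95% interval 0.700% to 4.09%), against 43 of 4232 without CTLA4 and IL2RA (1.02%, 0.736% to 1.37%). With CTLA4 or IL2RA the shares were 3.28%, 7.14% and 0.599% in LL 1, LL 2 and LH 1, against 0.893%, 1.36% and 1.20% without. The former rest on 2, 3 and 1 CDK1-positive cells, and LH 2 had 0 in both groups. In the DCN class they were 7 of 763 cells with an FGF10 UMI (0.917%) and 19 of 2485 without (0.765%). None of these pairs was tested, and their pooled intervals overlapped. Those intervals count cells of all ewes together and do not measure the spread between ewes.

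Among 625 genes with a symbol and UMIs in at least 50 cells, the share of CDK1-positive cells with a UMI, divided by the share of CDK1=0 cells with one, was highest for AURKA (23.0), TYRP1 (14.8), FEN1 (10.1), BST-2B (6.49) and LYZ (5.84). These ratios are not matched for depth.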
